A study of Mus musculus with 13 samples.

Results

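The Tcl1 family cluster of the mouse consists of 6 neighbouring genes, Tcl1 and Tcl1b1 to Tcl1b5, and its members were found by mapping the Ensembl identifiers of the count files to gene symbols. The family was chosen by its footprint counts and CPM in these same libraries, so its levels and its stage pattern are a description here. All 6 were listed among the 22442 genes of the Ribo-seq files and among the 21898 genes of the acRIP-seq files. Ribo-seq sequences the short mRNA fragments that a ribosome shields from RNase I (footprints), and acRIP-seq sequences mRNA fragments pulled down with an antibody to N4-acetylcytidine (ac4C), the RNA modification made by the acetyltransferase NAT10, or with control IgG. The 11 Ribo-seq libraries held 3 WT and 3 Nat10-ZcKO libraries of germinal vesicle (GV) oocytes, which are arrested in prophase I, and 2 WT and 3 Nat10-ZcKO libraries of metaphase II (MII) oocytes, which have matured. In Nat10-ZcKO females a Zp3-Cre transgene, active in growing oocytes, recombines floxed Nat10, so this recombination is limited to the oocyte. By the breeding scheme of the study these females are Nat10 lox/-; Zp3-Cre, with the other allele written as already lost. The labels give the controls only as WT. The study's methods describe juvenile females primed with PMSG, with MII oocytes obtained by culture or after hCG, but not which of these gave the sequenced MII oocytes. The series text also mentions tamoxifen for the Ribo-seq animals, although Zp3-Cre as described in the methods is not inducible. Each library was made from a pool of oocytes, and nothing in the labels says which pools came from separate females, so the p-values measure only the spread between these libraries. The 2 acRIP-seq libraries, 1 with anti-ac4C and 1 with IgG, were from WT GV oocytes. All mice of the study had a C57BL/6J background.

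TCL1 proteins are small, have no enzymatic activity of their own, and bind the kinase AKT and enhance its activity. TCL1 is best known from lymphocytes, where its overexpression is linked to leukaemia, and the Tcl1b genes of the mouse are expressed in the oocyte and early embryo. Much of the mRNA stored in a growing oocyte is kept with a short poly(A) tail and is translated only once meiosis resumes, when cytoplasmic polyadenylation lengthens the tail of mRNAs that carry a cytoplasmic polyadenylation element (CPE) near the poly(A) signal.

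On GRCm38 the cluster spans 76.78 kb of chromosome 12, from 105146014 to 105222793. Tcl1b2 (ENSMUSG00000060863.12, 105146014 to 105155225) comes first, followed by Tcl1b1 (ENSMUSG00000066359.6, 105159690 to 105166625), Tcl1b5 (ENSMUSG00000000701.8, 105176344 to 105181145), Tcl1b3 (ENSMUSG00000068940.7, 105191043 to 105195612) and Tcl1b4 (ENSMUSG00000079007.4, 105201957 to 105206993), all on the plus strand. Tcl1 (ENSMUSG00000041359.14, 105216750 to 105222793) closes the cluster on the minus strand, so that Tcl1 and the Tcl1b genes point toward each other. The principal transcript of each member has 4 exons and encodes 116 to 122 amino acids.

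**Figure D1:**
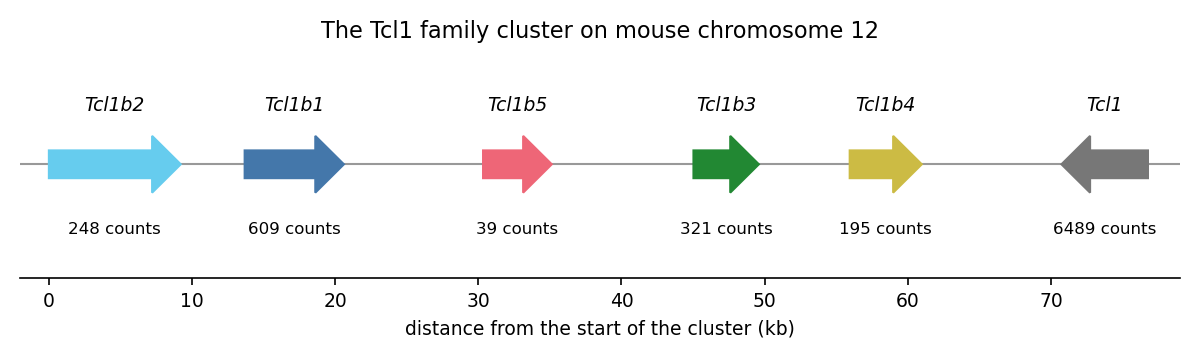
Map of the 6 members along the cluster, with the distance from its start in kb on the x axis, arrows pointing in the direction of transcription, and the counts summed over the 11 Ribo-seq libraries under each gene. Tcl1, at the right end, carried 6489 footprint counts, and the Tcl1b members carried between 39 (Tcl1b5) and 609 (Tcl1b1).

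Between Tcl1 and the Tcl1b members, coding sequence identity was 59.4% to 65.7%, and among the Tcl1b members it was 74.2% to 88.4%. Tcl1b3 and Tcl1b5 were the closest pair, with an identical run of 72 bases. The following 28-base stretches, the length of a typical footprint, are from a part of the coding sequence that Tcl1b3 and Tcl1b5 share, with the aligned bases of the other Tcl1b members (GRCm38, plus strand). They are shown because they decide which footprints can be assigned to a single member. Capitals mark bases that differ from Tcl1b3.
Tcl1b3, chr12:105193481-105193508: gcagcccattaataacaactctctcccc
Tcl1b5, chr12:105178985-105179012: gcagcccattaataacaactctctcccc
Tcl1b2, chr12:105153064-105153091: CAaTcccatGaatTacaactTtctAccc
Tcl1b1, chr12:105164460-105164487: CAaCcccTtGaatTacGactTtctAccc
Tcl1b4, chr12:105204707-105204734: CTCTcTcaAGaCtTTcaactTtctAccc
The stretch was the same in Tcl1b3 and Tcl1b5, whereas Tcl1b2, Tcl1b1 and Tcl1b4 differed from it at 7, 9 and 12 bases. Of all 28-base windows of the coding sequence, 100% were found only once in the primary genome sequence and transcripts for Tcl1 and Tcl1b2, 96.0% for Tcl1b1, 95.8% for Tcl1b4, and 70.5% for both Tcl1b3 and Tcl1b5. Counting also the alternate contigs and patches of GRCm38, which hold further matches, 100% of the Tcl1 windows were still unique, but 15.8% of those of Tcl1b3, 36.9% of Tcl1b5, 39.5% of Tcl1b1, 51.7% of Tcl1b2 and 76.8% of Tcl1b4. How the alignment treated fragments with more than 1 match is not given in the sources used here. Counts of the Tcl1b members, and of Tcl1b3 and Tcl1b5 above all, are therefore uncertain in level, and Tcl1 is not affected in this way.

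The 3′ ends of the family are shown because they hold the signals that govern polyadenylation in the oocyte. Each line below gives 30 bases of the 3′ UTR of the principal transcript (GRCm38, in the direction of transcription) with the poly(A) signal, AATAAA or ATTAAA, in capitals.
Tcl1, chr12:105216760-105216789, minus strand: acggctggatttAATAAAgctttgtagaac
Tcl1b1, chr12:105166589-105166618, plus strand: tgtttttaactaATTAAActttactgtttt
Tcl1b4, chr12:105206957-105206986, plus strand: tgtttttaactaATTAAActttactgtttt
Tcl1b5, chr12:105181109-105181138, plus strand: tgtttttaactaATTAAActttactgtttt
Tcl1b3, chr12:105195576-105195605, plus strand: tgtttttaactaATTAAActttattgtttt
Tcl1b2, chr12:105155189-105155218, plus strand: tgttttaaagtaATTAAActttactgtttt
The window was letter for letter the same in Tcl1b1, Tcl1b4 and Tcl1b5, and in all 5 Tcl1b members the signal ATTAAA started 25 bases before the annotated transcript end. In Tcl1 the signal AATAAA started 28 bases before the end. The 2 consensus CPE motifs TTTTAT and TTTTAAT were searched on the transcript strand, and they do not overlap the signals. TTTTAT was found 65 bases before the end of Tcl1, in the window chr12:105216797-105216826 on the minus strand, with the motif in capitals.
Tcl1: gaatgtgtgggaTTTTATgtggttctattt
Neither motif was found in the 3′ UTR of any Tcl1b member, which says only that these letters are not in the annotated sequence. Among 19302 genes with at least 100 bases of 3′ UTR, the last 100 bases held TTTTAT in 13.9%, TTTTAAT in 5.05% and either motif in 17.9%, so the match in Tcl1 is a description and not a site shown to act.

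Before the members are compared, 3 libraries have to be set apart. Library totals ran from 42360 to 279464 counts in 10 libraries, but WT MII replicate 2 held 4815. The 12 oocyte markers (Zp1 to Zp3, Gdf9, Bmp15 and others) took 3.40% to 6.33% of the counts in WT GV replicates 1 to 3 and Nat10-ZcKO GV replicate 3, and 0.964% to 1.27% in WT MII replicate 1 and the 3 Nat10-ZcKO MII libraries. In Nat10-ZcKO GV replicates 1 and 2 and WT MII replicate 2 they took between 0.00944% and 1.05%. The 16 adipocyte markers took 1.77% and 0.373% in Nat10-ZcKO GV replicates 1 and 2, against at most 0.0616% in the 8 libraries not set apart. In WT MII replicate 2 they took 0.166%, but this was 8 counts of 1 gene, Acly. In these 3 libraries, fewer counts on oocyte genes and lower expression of those genes in the oocyte cannot be told apart, so each result is given with and without them. Nat10, the deleted gene, had 8, 11 and 3 counts in WT GV, 4, 1 and 5 in Nat10-ZcKO GV, 1 and 5 in WT MII, with 6, 3 and 2 for Nat10-ZcKO MII, too few to check the labels.

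The footprints of the family took up a several times larger part of the translatome in MII than in GV oocytes. In WT GV replicates 1 to 3 the 6 members held 286, 423 and 143 counts, or 0.197%, 0.151% and 0.149% of the library (0.166% ± 0.0269, SD, n = 3). The sum was 1497 counts (1.11%) in WT MII replicate 1. For the Nat10-ZcKO MII libraries the sum was 2019, 816 and 2395 counts (1.07%, 0.556% and 1.50%, mean 1.04% ± 0.473, SD, n = 3). Nat10-ZcKO GV replicate 3, the library of that group that does not stand apart, held 215 counts (0.0776%). Thus every MII library with oocyte markers lay above every GV library. This also held for each of the 6 members among the 8 libraries that do not stand apart, as it did for 25.1% of 4029 genes. Of the libraries that stand apart, Nat10-ZcKO GV replicate 1 held 1 family count, Nat10-ZcKO GV replicate 2 held 104 (0.201%) and WT MII replicate 2 held 2 (0.0415%). Set against the oocyte markers rather than the library, there were 1.23 to 5.78 family counts per 100 oocyte marker counts in the 4 GV libraries, and 57.7 to 122 in the 4 MII libraries. This contrast also holds the lower share of the oocyte markers themselves in MII. In the libraries that stand apart the value was 25.0 and 19.1 in Nat10-ZcKO GV replicates 1 and 2, on 1 and 104 family counts, and WT MII replicate 2 had 2 counts of each.

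Tcl1 was the main member in every group. Its counts were 231, 340 and 119 in WT GV, 1, 100 and 198 in Nat10-ZcKO GV, 1254 and 2 in WT MII, with 1611, 633 and 2000 for Nat10-ZcKO MII. As CPM, the count scaled to the library total, the level of Tcl1 was 1347 ± 209 in WT GV and 8470 ± 4106 in Nat10-ZcKO MII (SD, n = 3 for both). WT MII replicate 1 was at 9300 CPM. In TPM, which also divides by the length of the coding sequence, Tcl1 ranked between 23rd and 38th of all genes in the WT GV libraries, 4th in WT MII replicate 1, and between 4th and 9th in the Nat10-ZcKO MII libraries. It ranked 72nd in Nat10-ZcKO GV replicate 3, and 11th in Nat10-ZcKO GV replicate 2, which stands apart. Tcl1 was thus already among the genes with the most footprints per length in GV oocytes and was near the top in MII oocytes.

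Of the Tcl1b genes, which are thought to arise from duplication of a shared ancestor, Tcl1b1 had the most counts summed over the 11 libraries, although Tcl1b3 had more in each WT GV library. It had 16, 21 and 7 counts in WT GV, 0, 1 and 7 in Nat10-ZcKO GV, 112 and 0 in WT MII, with 180, 72 and 193 for Nat10-ZcKO MII. Tcl1b3 had 19, 28 and 10 counts in WT GV but 0, 0 and 2 in Nat10-ZcKO GV, and 52 and 0 in WT MII against 77, 49 and 84 in Nat10-ZcKO MII. Apart from the MII library with 4815 counts, the GV libraries of Nat10-ZcKO oocytes were the only ones in which Tcl1b3 stayed at or under 2 counts. Tcl1b2 had 7, 17 and 5 counts in WT GV and 0, 2 and 5 in Nat10-ZcKO GV, and 39 and 0 in WT MII, with 87, 40 and 46 for Nat10-ZcKO MII. Tcl1b4 had 12, 15 and 2 counts in WT GV and 0, 0 and 3 in Nat10-ZcKO GV, and 32 and 0 in WT MII, with 54, 16 and 61 for Nat10-ZcKO MII. Tcl1b5 was at the edge of detection in GV oocytes of both genotypes, with 0 to 2 counts in each library, whereas it had 8 and 0 counts in WT MII, with 10, 6 and 11 for Nat10-ZcKO MII. With 3 counts as the limit, a member at 0 may still lie at up to 10.8 CPM for Nat10-ZcKO GV replicate 3 and at up to 58.0 to 70.8 CPM for Nat10-ZcKO GV replicates 1 and 2. For WT MII replicate 2 the limit was 623 CPM, which is above the WT GV mean of every Tcl1b member (4.68 to 112 CPM), so this library cannot show them. These limits, and the intervals given below, hold for counting error alone, as PCR copies of 1 molecule are counted separately.

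**Figure D2:**
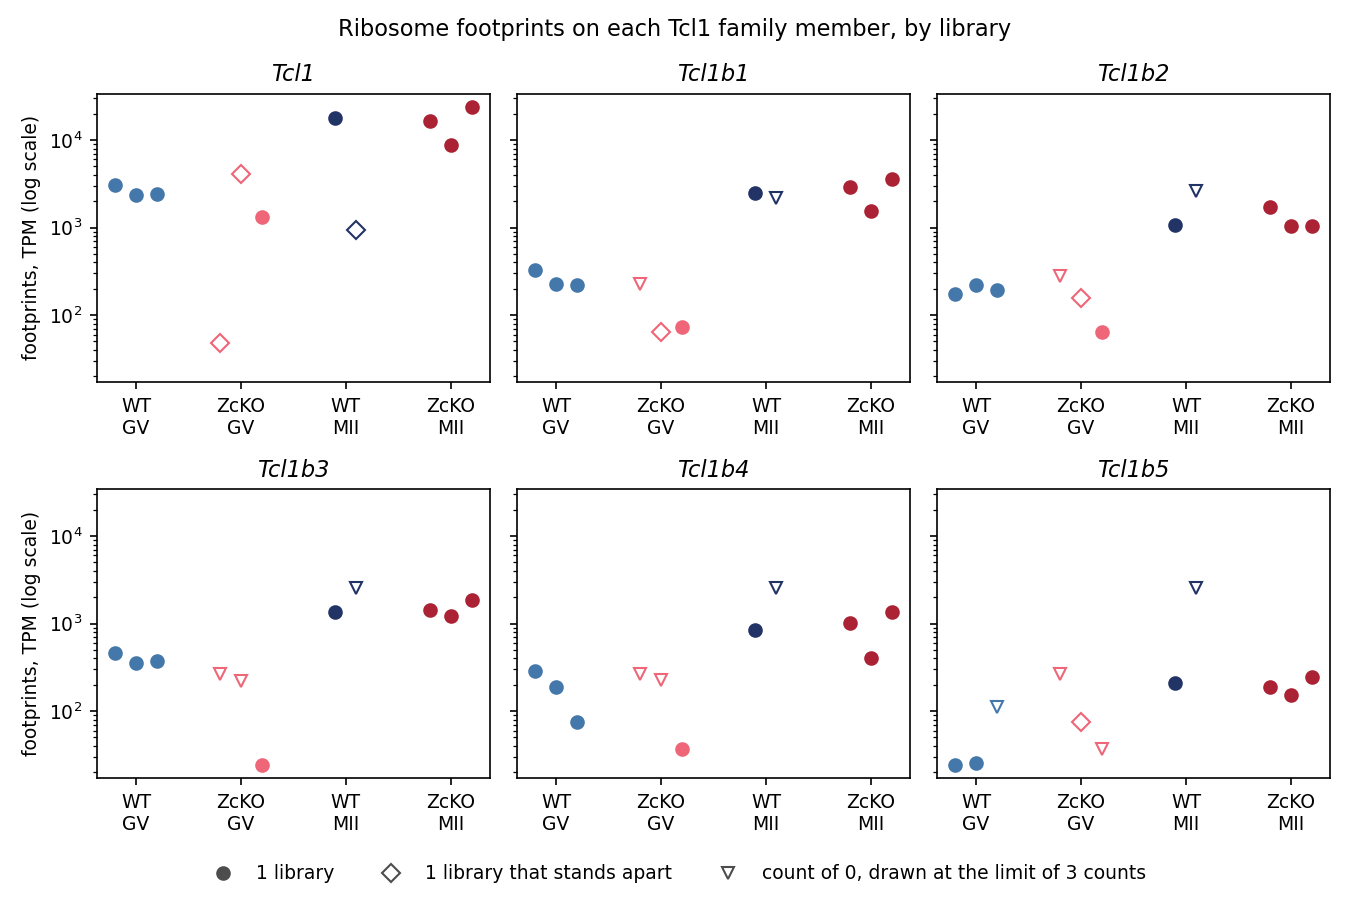
Footprint level of each member in TPM (log scale on the y axis), 1 point for each library, by group on the x axis. Open diamonds mark the 3 libraries that stand apart, and open triangles mark libraries with a count of 0, drawn at the level that 3 counts would give. For each of the 6 members all filled MII points lie above all filled GV points, as for 25.1% of the genes tested.

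Between the members, levels can be ordered only per length. In WT GV oocytes Tcl1 was at 2609 ± 382 TPM, Tcl1b3 at 393 ± 55.3, Tcl1b1 at 258 ± 60.2, Tcl1b2 at 197 ± 24.3, Tcl1b4 at 185 ± 108 and Tcl1b5 at 16.5 ± 14.3 TPM (SD, n = 3). In Nat10-ZcKO MII oocytes Tcl1 was at 16472 ± 7677 TPM, Tcl1b1 at 2676 ± 1048, Tcl1b3 at 1505 ± 310, Tcl1b2 at 1266 ± 375, Tcl1b4 at 922 ± 477 and Tcl1b5 at 195 ± 45.8 TPM (SD, n = 3). Tcl1 was first and Tcl1b5 last in all 3 WT GV libraries and in all 4 MII libraries with oocyte markers. Tcl1b2 and Tcl1b4 changed places between libraries of 1 group in both stages, as did Tcl1b2 and Tcl1b3 in MII, and these neighbours did not differ beyond their spread. Tcl1b3 stood above Tcl1b1 in all 3 WT GV libraries, and Tcl1b1 stood above Tcl1b3 in all 4 MII libraries and in Nat10-ZcKO GV replicate 3. Tcl1 made up 71.4% ± 2.13 of the summed TPM of the family in WT GV (SD, n = 3), and 81.8% when the coding sequence of the principal transcript was used as length in place of the union of all annotated coding segments, which is longer for Tcl1 than for any other member.

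The make-up of the family was compared within each library, as shares of the family counts, which need no scaling between libraries. The Tcl1b members together held 19.2%, 19.6% and 16.8% of the family counts in WT GV replicates 1 to 3. The share was 16.2% in WT MII replicate 1, and the Nat10-ZcKO MII libraries were at 20.2%, 22.4% and 16.5%, so their joint share overlapped between the stages. In Nat10-ZcKO GV it was 3.85% (95% interval 1.06% to 9.56%, exact Clopper-Pearson) in replicate 2, on 104 family counts, and 7.91% (4.67% to 12.4%) in replicate 3, on 215, and neither reached the lowest WT GV value. Tcl1b3 held 6.64%, 6.62% and 6.99% of the family counts in WT GV, 0 of 104 and 0.930% (0.113% to 3.32%) in Nat10-ZcKO GV replicates 2 and 3, and 3.47% to 6.00% in the 4 MII libraries. These are 5 GV libraries, 1 of which stands apart, and an exact permutation test of 3 against 2 libraries cannot go below a two-sided p of 0.2, so the difference is given without a test.

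**Figure D3:**
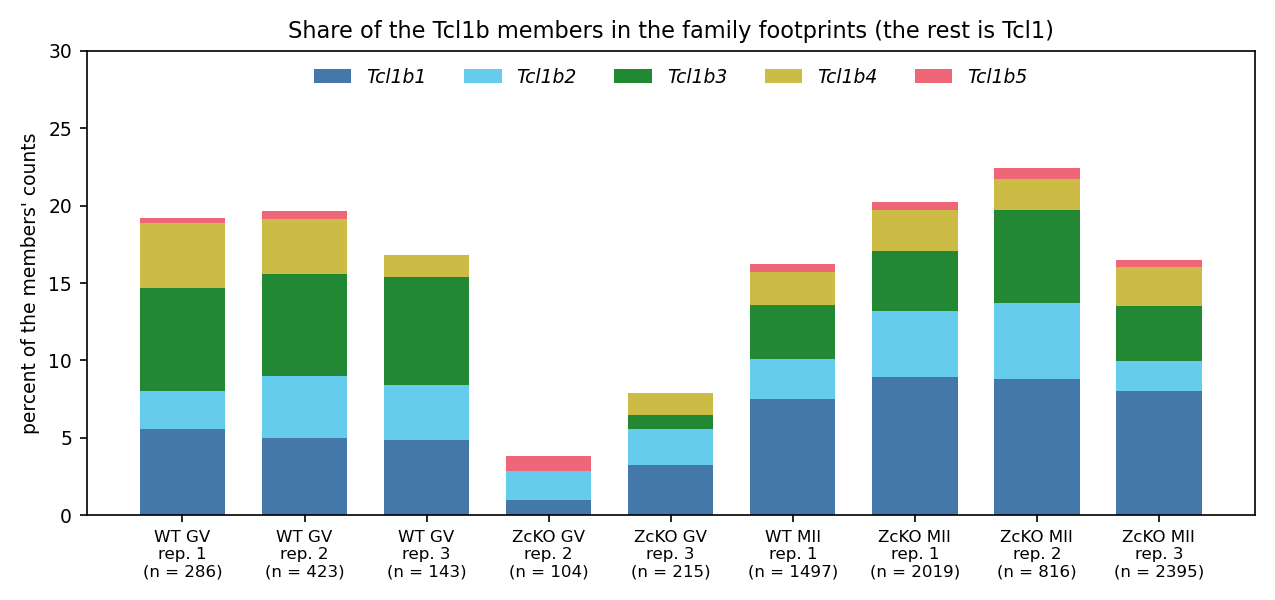
Percent of the summed family counts held by each Tcl1b member (stacked bars, y axis) in each library with at least 50 family counts (x axis, with the number of family counts), the remainder being Tcl1. The stack is lower in the 2 Nat10-ZcKO GV libraries, at 3.85% and 7.91%, than in the other 7, at 16.2% to 22.4%, and replicate 2 of Nat10-ZcKO GV is a library that stands apart.

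Within the Tcl1b genes, Tcl1b1 held 45.7%, 42.9% and 41.2% of the counts of Tcl1b1 and Tcl1b3 together in WT GV replicates 1 to 3. In MII the value was 68.3% for WT replicate 1, and 70.0%, 59.5% and 69.7% for the 3 Nat10-ZcKO libraries. These WT GV values lay below the MII values, although the interval of WT GV replicate 3 (18.4% to 67.1%, on 17 counts) reached into the MII range. Nat10-ZcKO GV replicate 3 was at 77.8% (40.0% to 97.2%) on 9 counts and did not share the WT GV order, and replicate 2 had 1 count of Tcl1b1 and 0 of Tcl1b3, so the stages overlapped when both genotypes were counted. Tcl1b1 alone held 4.90% to 5.59% of the family counts in WT GV and 7.48% to 8.92% in the 4 MII libraries, and it was lower still, at 0.962% and 3.26%, in Nat10-ZcKO GV replicates 2 and 3.

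Differences between groups were tested with edgeR's quasi-likelihood test over all genes that passed its filter on low counts, with TMM scaling and Benjamini-Hochberg adjustment, and a gene was called at an adjusted p under 0.05. Since the family was proposed with its footprint levels known, these calls describe the libraries and are not independent support for the stage pattern. Each comparison was also read from 1 fit of the 8 libraries that do not stand apart, in which WT MII and Nat10-ZcKO GV have 1 library each and are assumed to vary like the other groups.

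For maturation in WT oocytes, the log2 changes of the members were positive in the 8-library fit, and none was called when WT MII replicate 2 was included. With all 5 WT libraries, Tcl1, Tcl1b1, Tcl1b3 and Tcl1b4 passed the filter and none was called, where 6 of 2045 genes were called higher (0.293%) and none lower. The log2 change there was 2.28 ± 2.03 for Tcl1 (SE, edgeR adjusted p = 0.478), 2.80 ± 1.37 for Tcl1b1, 1.45 ± 1.12 for Tcl1b3 and 1.99 ± 0.83 for Tcl1b4. The median over all genes tested was -0.67. Tcl1b4 passed the filter only with WT MII replicate 1 counted, at 237 CPM against 20.8 to 82.5 CPM in WT GV, so nothing is drawn from its value. Without WT MII replicate 2, which leaves 1 MII library, 5 members passed the filter, Tcl1b2 only through that library. The log2 change was 2.85 for Tcl1, 3.33 for Tcl1b1, 1.86 for Tcl1b3 and 2.15 for Tcl1b4, and the median over all genes tested was -0.35. Without WT MII replicate 1, leaving the library of 4815 counts as the only one for its group, all 3 members tested were called lower (-4.97 for Tcl1), as were 72.5% of 2455 genes. Among the 8 libraries, all 6 members passed the filter, Tcl1b2 and Tcl1b5 only through their MII libraries, so nothing is drawn from the values of these 2. With 1 library for WT MII, only the size of the change is given. The log2 change was 2.75 ± 0.45 for Tcl1 (SE, edgeR), 3.23 ± 0.46 for Tcl1b1, 1.76 ± 0.46 for Tcl1b3 and 2.06 ± 0.63 for Tcl1b4. Tcl1b2 was at 2.36 ± 0.50 and Tcl1b5 at 3.23 ± 1.30. The median over all genes was -0.22. For Tcl1, the mean CPM was 6.90 times higher in WT MII replicate 1 than in WT GV, and for the whole family it was 6.71 times higher.

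In Nat10-ZcKO oocytes the same direction was called with all libraries. The 5 members that passed the filter were higher in every MII than in every GV library, a pattern shown by 28.6% of the 2225 genes tested. Of these, Tcl1b1, Tcl1b2, Tcl1b3 and Tcl1b4 were called higher, where 222 of 2225 genes (9.98%) were called in that direction and 6.56% in the other. These 4 did not exceed 38.7 CPM in any Nat10-ZcKO GV library and passed the filter only through the MII libraries, where they were high. Neither their calls nor their lack of overlap is therefore support for a stage change. The log2 change was 5.13 ± 0.95 for Tcl1b1 (SE, edgeR adjusted p = 0.0132), 3.72 ± 0.84 for Tcl1b2, 5.83 ± 0.97 for Tcl1b3 and 4.65 ± 1.01 for Tcl1b4. Tcl1, with 1 to 198 counts in the GV libraries, was at 3.02 ± 1.35 (edgeR adjusted p = 0.122). These calls rest on the 3 MII libraries together, and none was left when any 1 of them was omitted, nor was any of the 3037 to 3168 genes then tested called by edgeR, with log2 changes that stayed between 2.57 and 8.75 over all 6 libraries left out in turn. Among the 8 libraries Tcl1 and Tcl1b1 to Tcl1b4 were called, with 20.4% of the 4029 genes called higher and 43.1% in either direction. Tcl1 was then at 3.39 ± 0.62 (SE, edgeR adjusted p = 6.8e-05), and the median of the members other than Tcl1b5 was 4.32, against 0.01 over all genes. Tcl1b5 had 0 counts in Nat10-ZcKO GV replicate 3 and its MII level was at least 5.02-fold higher than the limit of 3 counts in that library. With Tcl1b5 at this bound the median was 4.14. The 8-library fit called Tcl1b5 as well. Tcl1b2 and Tcl1b5 passed its filter only through MII libraries, so nothing is drawn from their values or calls. Both medians include Tcl1b2 and are thus only a description.

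**Figure D4:**
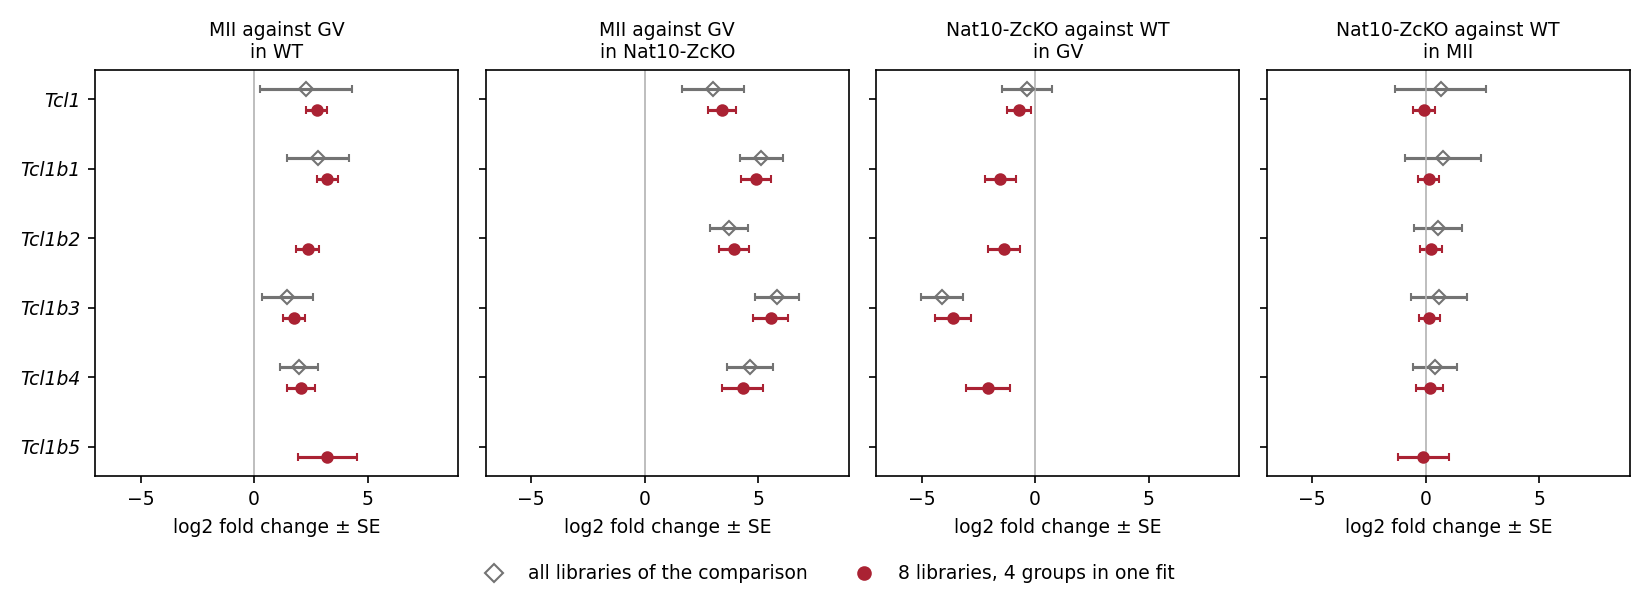
Log2 fold change of each member with its standard error (x axis) in the 4 comparisons, from all libraries of the comparison (open diamonds) and from the 8 libraries that do not stand apart (filled circles), by edgeR. Members that did not pass the filter have no diamond, and Tcl1b5 is left out where Nat10-ZcKO GV replicate 3 had 0 counts. Both sets lie to the right of 0 for MII against GV, and around 0 for the genotypes in MII.

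The comparison of the genotypes in GV oocytes asks whether loss of Nat10 alters the family before maturation. With all 6 GV libraries Tcl1 and Tcl1b3 passed the filter and neither was called, nor was any other of the 1765 genes (0% called, 93 genes at an unadjusted p under 0.05). DESeq2, run on 13004 genes without that filter, called 13 genes and no member. The log2 change was -0.35 ± 1.10 for Tcl1 (SE, edgeR adjusted p = 0.935) and -4.11 ± 0.92 for Tcl1b3 (adjusted p = 0.794). Tcl1b3 passed the filter only through the WT libraries, where it was high, so its change and its lack of overlap are a description and not support for a difference. It was higher in CPM in every WT than in every Nat10-ZcKO GV library, also with counts of 0 set to their limit, and 12.8% of the genes tested were higher in every WT library. The same held narrowly for Tcl1b1, which did not pass the filter, with 72.8 CPM as its lowest WT level. Tcl1b2 and Tcl1b4 cannot be placed in this way, since the limits of 58.0 and 70.8 CPM in Nat10-ZcKO GV replicates 2 and 1 exceed some of their WT levels. Against Nat10-ZcKO GV replicate 3 alone, Tcl1 to Tcl1b4 were higher in all 3 WT GV libraries, and 34.5% of 4029 genes were. Nat10-ZcKO GV replicate 2, which stands apart, went the other way for Tcl1, at 1934 CPM against 1217 to 1588 CPM in WT GV. Among the 8 libraries none of the 6 members was called, and 2 of 4029 genes were (0.0496%), 1 in each direction (0.0248%). There the log2 change was -0.71 ± 0.52 for Tcl1, -1.54 ± 0.69 for Tcl1b1, -1.36 ± 0.70 for Tcl1b2, -2.08 ± 0.96 for Tcl1b4 and -3.63 ± 0.80 for Tcl1b3 (SE, edgeR adjusted p = 0.0911 for Tcl1b3 and 0.597 or more for the others). Oocyte markers together took a larger part of Nat10-ZcKO GV replicate 3 (6.33%) than of the WT GV libraries (3.40% to 4.52%). Single markers went both ways. Against WT GV replicate 2, whose total was 279464 beside 277124, Zp3 had 4908 against 2802 counts, and Gdf9 had 436 against 929. Whether oocyte content plays a part in the lower family share was not tested. Adipocyte markers took 0.0217% to 0.0447% of the counts in these 4 GV libraries.

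In MII oocytes the genotypes were not told apart for any member. WT MII replicate 1 lay within the range of the 3 Nat10-ZcKO MII libraries for all 6 members, as it did for 53.5% of 4029 genes. In the fit of all 5 MII libraries 5 members passed the filter and none was called, with 4 of 2097 genes called lower (0.191%) and none higher, and the log2 changes were between 0.40 ± 0.98 (Tcl1b4) and 0.77 ± 1.69 (Tcl1b1). Among the 8 libraries they were between -0.09 ± 1.14 (Tcl1b5) and 0.24 ± 0.47 (Tcl1b2), none was called, and 2 of 4029 genes were (0.0496%). For Tcl1 the value was -0.07 ± 0.49. At standard errors of 0.46 to 1.14 these values do not show that the genotypes were alike.

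The difference between the genotypes in the stage change was tested as an interaction over all 11 libraries. Of 3863 genes, 31 were called (0.802%), 30 of them lower (0.777%) and 1 higher (0.0259%), and no member was among them. The log2 interaction was 5.48 ± 1.98 for Tcl1b3 (SE, edgeR adjusted p = 0.376) and 1.74 ± 2.51 for Tcl1 (adjusted p = 0.836). The median over the 5 members was 3.40, but the median over all genes was 1.04 in the same fit and 0.15 when libraries were scaled by size only, so member values are to be read relative to it. Among the 8 libraries, Tcl1b3 was at 3.80 ± 0.95 (edgeR adjusted p = 0.221) and Tcl1 at 0.64 ± 0.71, and no gene was called (288 at an unadjusted p under 0.05). A larger stage change of the family in Nat10-ZcKO than in WT oocytes was therefore not shown.

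Markers of other cells were compared because TCL1 is also made by lymphocytes and because oocytes are collected with follicle cells. Of 10 B lymphocyte markers, 7, among them Cd79a and Pax5, had 0 counts in all 11 libraries, and the list held 0 to 6 counts in a library. The 15 granulosa or cumulus markers took 0.301% to 0.568% of the counts in the 4 GV libraries and 0.221% to 0.567% in the 4 MII libraries with oocyte markers. In the 8-library fit the median log2 change from GV to MII over the 13 genes of the list tested was -0.30 in WT and 0.09 in Nat10-ZcKO. Ptx3 and Tnfaip6, which cumulus cells make after hCG, were at 11.5 and 9.58 in WT and at 7.33 and 8.77 in Nat10-ZcKO. Amh was at -5.83 and -4.68. With all libraries none was called in WT. In Nat10-ZcKO 2 of 8 were called higher (Ptx3 and Tnfaip6) and 1 lower (Amh), beside 9.98% and 6.56% of 2225 genes. Ptx3 and Tnfaip6 passed the filter only through MII libraries and Amh only through GV libraries, where they were high. Nothing is therefore drawn from these values and calls. The part of the follicle cell counts in the level of the family was not tested. Over the 12 oocyte markers the median log2 change in the 8-library fit was -2.42 in WT and -2.73 in Nat10-ZcKO. In WT, Zp2 and Zp3 were at -5.78 and -5.36, whereas Oosp1 and Mos were at 3.10 and 5.48. With all libraries of each comparison none was called in WT, and in Nat10-ZcKO 1 of 11 was, Mos, which was higher. Mos passed the filter only through MII libraries, so nothing is drawn from its value or call.

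Genes of the AKT pathway, in which TCL1 proteins act, changed in both directions from GV to MII in the 8-library fit. The list of the AKT pathway held 22 genes, of which 4 or 5 passed the filter in the comparisons of 2 groups and none was called there. Among the 8 libraries 9 passed it. In WT the log2 change was 2.27 ± 0.55 for Pik3r1 (a regulatory subunit of PI3 kinase), 1.45 ± 0.44 for Foxo3 (a transcription factor inhibited by AKT) and -2.92 ± 0.69 for Mtor (SE, edgeR). In Nat10-ZcKO, Foxo3 was at 1.80 ± 0.50 and Mtor at -2.11 ± 0.53. Mapkap1 (a subunit of mTORC2) was at 2.90 ± 1.04 in WT and 4.15 ± 1.32 in Nat10-ZcKO, with 0 to 4 counts in each GV library. Mapkap1, Akt1 and Gsk3a passed the filter only through MII libraries, so nothing is drawn from their values. Foxo3 had the most counts of the list, with 23, 38 and 18 in WT GV, 59 in WT MII replicate 1, with 68, 49 and 71 for Nat10-ZcKO MII. The median over the 9 genes, which include Mapkap1, Akt1 and Gsk3a, is thus only a description. It was 1.24 in WT and 1.15 in Nat10-ZcKO, against -0.22 and 0.01 over all genes. No gene of the list was called between the genotypes in GV or MII oocytes or in the interaction. Akt1, encoding a kinase that TCL1 binds, had 0 to 11 counts in a library, and Mtcp1, the other TCL1 relative of the mouse, had 0 in all 11.

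The neighbours of the cluster lay far from it. Glrx5, the nearest protein-coding gene on 1 side at 103108 bases, encodes a mitochondrial glutaredoxin of iron-sulfur cluster assembly. It had 72, 108 and 47 counts in WT GV, 7, 16 and 101 in Nat10-ZcKO GV, 3 and 0 in WT MII, and the Nat10-ZcKO MII libraries had 6, 20 and 2. Without the libraries that stand apart it had 47 to 108 counts in GV and 2 to 20 in MII. Tunar, at 111077 bases on the other side, had 0 counts in all 11 libraries.

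The genes whose CPM followed the summed family most closely were ranked by Pearson's r of log2(CPM + 10) among the 1097 genes with at least 200 counts, as a description over libraries that share depth and oocyte content. Over all 11 libraries these were Bcl2l10 (r = 0.990), Oosp1 (0.981), Cit (0.981), Accsl (0.981) and Rhpn2 (0.962), and over the 8 libraries AU022751 (0.994), Smco4 (0.993), Trp53bp1 (0.989), E330021D16Rik (0.987) and Txnip (0.986). The 2 lists share no gene. Bcl2l10, a BCL2 relative expressed in oocytes, was at 1052, 1188 and 1061 CPM in WT GV, 462 CPM in Nat10-ZcKO GV replicate 3, 8395 CPM in WT MII replicate 1, with 8810, 5718 and 8685 CPM for Nat10-ZcKO MII.

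In acRIP-seq the members differed in their ratio of anti-ac4C to IgG, each ratio being of the CPM of 1 library with 1 library, with an exact 95% interval for counting error and no test. The anti-ac4C library held 970997 counts and the IgG library 116232, so the precision is set by the IgG library. Tcl1 had 1859 and 153 counts, a ratio of 1.45 (1.23 to 1.73). Tcl1b1, with 250 and 15 counts, was at 1.995 (1.19 to 3.62), and Tcl1b2, with 87 and 5, at 2.08 (0.859 to 6.58). Tcl1b3, with 105 and 17 counts, was at 0.739 (0.440 to 1.32), and Tcl1b4, with 78 and 18, at 0.519 (0.308 to 0.920). Tcl1b5 had 20 counts with anti-ac4C and 0 with IgG, which is within the limit of 3 counts, so no ratio is given. The ratio of the whole family was 1.38 (1.20 to 1.60) beside a median of 1.27 over the 4680 genes with at least 50 counts. A single member, Tcl1b2, exceeded 2, as did 32.8% of those genes. The intervals of Tcl1 and Tcl1b1 did not overlap that of Tcl1b4, whereas that of Tcl1b2 overlapped those of all others with a ratio. For the anti-ac4C and IgG libraries alike the counts include fragments that near-identical copies may share, and the sources used here do not say how these were assigned.

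**Figure D5:**
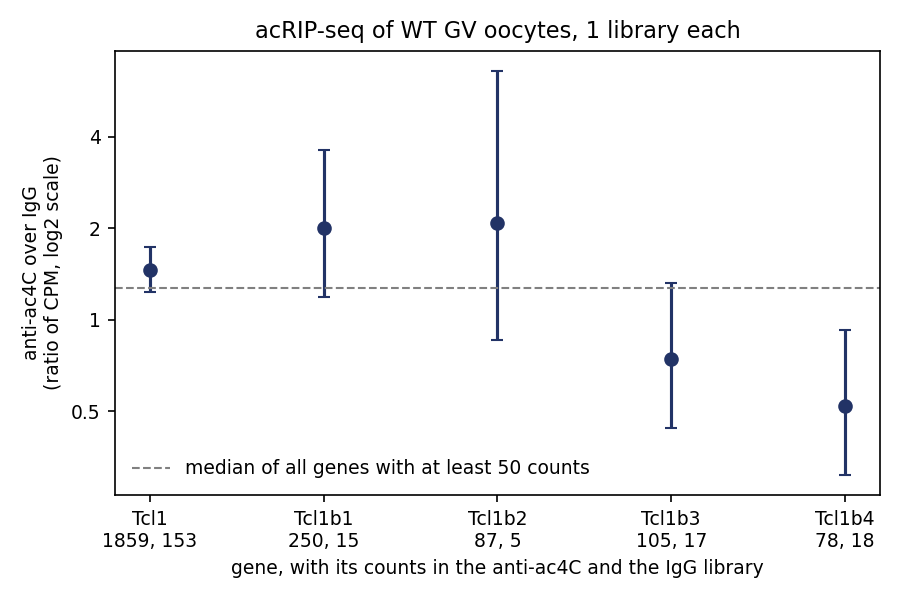
Ratio of anti-ac4C to IgG in CPM (y axis, log2 scale) for 5 members, with exact 95% intervals from the counts shown under each gene and the median of all genes as a dashed line. Tcl1, Tcl1b1 and Tcl1b2 lie above the median of 1.27, and Tcl1b3 and Tcl1b4 below it.

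The acRIP-seq libraries are the only measure of RNA fragments in these files, although not an input, and allow the footprints to be set against RNA for WT GV oocytes. For Tcl1 there were 0.704 CPM of footprints per CPM of anti-ac4C fragments and 1.02 per CPM of IgG fragments, above the medians of 0.369 over 4680 genes and 0.449 over 4314 genes. Tcl1b3 was at 1.03 and 0.763, Tcl1b2 at 0.599 and 1.25, Tcl1b4 at 0.651 and 0.338, and Tcl1b1 at 0.334 and 0.666. The order of the Tcl1b members thus changed with the library used as the base, and only Tcl1, Tcl1b2 and Tcl1b3 were above the median with both. RNA of MII oocytes was not analysed here, so that a higher amount of mRNA and more footprints per mRNA cannot be told apart for the higher footprint level of the family in MII.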

How the data were processed

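The authors deposited raw counts for each of the 13 libraries, on the coding sequence for Ribo-seq and on genes for acRIP-seq, as whole numbers without normalization. Per the labels, the processing notes of the submitters name cutadapt, STAR, HTSeq and the build mm10, and versions and multi-mapping rules are not given in the sources used here. In the acRIP-seq counts, rows that name no gene were left out, with 17.1% of the anti-ac4C and 46.7% of the IgG library on no feature. Of 22442 Ribo-seq identifiers, 22399 matched GENCODE M21 (GRCm38), from which coordinates, coding lengths and transcripts were taken. Total counts per Ribo-seq library were 4815 to 279464.

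CPM, TPM (83 genes without coding length left out), shares with exact Clopper-Pearson intervals and window searches (28 bases) were obtained with numpy 2.4.6, scipy 1.17.1, pandas 2.3.3 and Biopython 1.88 under Python 3.11.15. Coding sequences were aligned globally. Group differences were tested with edgeR 4.0.16 in R 4.3.3 (filterByExpr, TMM, glmQLFit, glmQLFTest, prior count 0.125, Benjamini-Hochberg), where the SE was taken as log2 change over the root of F, and with DESeq2 1.42.0 as an alternative. The fits were run on counts simulated with a single dispersion and, apart from the changed genes, the same composition in all libraries. This does not show how they perform with the libraries that stand apart. Alternatives were other filters, scaling by library size, all libraries in 1 fit, a replicate block, each replicate left out, the 8 libraries that do not stand apart, and other lengths for TPM.

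Named genes were the 6 members, Nat10, the neighbours, the 5 most similar genes, and from each fixed list the called genes (at most 4) and the gene with the most counts. The members, lists and tests were chosen with earlier results of these data known. mRNA libraries and read positions were not analysed here.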

Additional observations from a re-analysis of the deposited data

Results flagged for a closer look

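The change from GV to MII differed between the genotypes for 31 genes in the interaction test over all 11 libraries (edgeR adjusted p under 0.05), 30 lower and 1 higher in Nat10-ZcKO, and none of the 6 family members was among them. In the 8 libraries that do not stand apart no gene was called, with 288 at an unadjusted p under 0.05.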

How the results depend on the processing

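Counts of genes called moved most with the choice of libraries, and the cause was not tested. For Nat10-ZcKO against WT in GV, 0 genes were called, against 13 by DESeq2, 41 without a filter on low counts, 23 with all 11 libraries in 1 fit, 2 in the 8 libraries, and 0 to 380 when 1 library was left out (380 without Nat10-ZcKO GV replicate 3). For the genotypes in MII, 4 were called, against 34 by DESeq2, 44 with scaling by library size (2 higher, 42 lower), 0 without a filter, 0 with the replicate block, 19 with all 11 libraries, 2 in the 8 libraries, and 0 to 1451 with 1 library left out (1451 without WT MII replicate 1 and 0 without any 1 Nat10-ZcKO MII library). For MII against GV in WT, 6 were called, against 411 by DESeq2 (90 higher, 321 lower), 997 with scaling by library size (343 higher, 654 lower), 0 without a filter, 0 with the replicate block, 60 with all 11 libraries, 1248 in the 8 libraries, and 37 to 1902 with 1 library left out (1902 without WT MII replicate 1 and 1463 without replicate 2). For MII against GV in Nat10-ZcKO, 368 were called (222 higher, 146 lower), against 502 by DESeq2 (368 higher, 134 lower), 194 with the replicate block, 1737 in the 8 libraries, and 0 to 780 with 1 library left out (780 without Nat10-ZcKO GV replicate 3). For the interaction, 31 were called, against 54 by DESeq2, 48 with scaling by library size, 10 without a filter, 19 with a stricter filter, 8 with the replicate block, 0 in the 8 libraries, and 0 to 1209 with 1 library left out.

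Members called between the genotypes in GV were 0, against 1 of 6 without a filter (41 of 13004 genes). Without Nat10-ZcKO GV replicate 3, 1 of 2 was called (380 of 1858 genes). For MII against GV in Nat10-ZcKO they were 0 to 5 with 1 library left out, with 5 of 5 without Nat10-ZcKO GV replicate 1 (664 of 2693 genes). For MII against GV in WT, 3 of 4 were called with scaling by library size (997 of 2045 genes). DESeq2 called 1 of 6 for the interaction (54 of 13685 genes). Fits that leave 1 library in a group are not counted here. The log2 change of Tcl1 between the genotypes reversed to 0.074 in GV without Nat10-ZcKO GV replicate 1 (range -1.66 to 0.074), and in MII to -0.073 in the 8 libraries and -0.17 without WT MII replicate 2 (range -0.17 to 7.07). Tcl1b4 reversed to -0.076 in MII without Nat10-ZcKO MII replicate 3 (range -0.076 to 8.14). For MII against GV in WT the replicate block gave -0.18 for Tcl1 and -0.054 for Tcl1b3, and without WT MII replicate 1 the values were -4.97 for Tcl1, -6.63 for Tcl1b1 and -6.99 for Tcl1b3 (highest values with 1 library left out 2.85, 3.33 and 2.06). Of the member changes, 50 of 65 alternatives for MII against GV in Nat10-ZcKO kept direction and side of the threshold, and none reversed.

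Replicate numbers did not pair the libraries: deviations of same-numbered libraries from their group means correlated at -0.048 to 0.141. In WT MII, with the block, 1 pair rests on the library of 4815 counts.

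The part of Tcl1 in the summed TPM of the family was 81.5%, 83.8% and 80.3% (WT GV, WT MII, Nat10-ZcKO MII) from CPM, 79.4%, 82.4% and 78.7% with unique windows as length, and 81.8%, 84.0% and 80.6% with the principal transcript, the last chosen after seeing the data. Without scaling, acRIP ratios were 12.2, 16.7, 17.4, 6.18 and 4.33 for Tcl1 and Tcl1b1 to Tcl1b4, since the anti-ac4C library is 8.35 times deeper. Members above a ratio of 2 were 1 with CPM, 2 with TMM factors, 5 without scaling and 0 by the lower 95% bound.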
